A study of Mus musculus with 9 samples.

Results

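The 10 genes described here encode alarmins and other secreted proteins of neutrophils (S100a8, S100a9, Lcn2 and Retnlg) and receptors on the neutrophil surface (Csf3r, Trem1, Clec4d, Clec4e, Fpr1 and Fpr2). They were chosen by gene symbol, and all 10 were found among the 54532 genes counted. RNA-seq was performed on heart tissue of wild-type (WT) male C57BL/6J mice aged 8 to 10 weeks, with 3 libraries for each of 3 groups. In the MIRI group (myocardial ischemia/reperfusion injury) the left anterior descending coronary artery was tied for 30 min and blood flow was then restored for 24 hrs, with saline given as the vehicle. The GXNI group had the same ischemia and reperfusion and received Guanxinning injection, a herbal preparation used in cardiovascular disease, at 9 mL/kg into the tail vein within 10 min of ischemia. Sham mice underwent thoracotomy with the suture placed and left untied, and were given saline. Every mouse, sham included, thus had an open chest and an intravenous injection.

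Neutrophils are short-lived white blood cells that leave the blood for injured tissue within hours and are among the first cells to enter reperfused myocardium. They carry large stores of S100A8 and S100A9, calcium-binding proteins that pair as calprotectin and act as alarm signals once released. Their surface receptors sense growth factor (CSF3R), formylated peptides from bacteria and mitochondria (FPR1 and FPR2) and material of dying cells (the C-type lectins), and amplify the response (TREM1). Lipocalin-2, which binds iron-carrying siderophores, is stored in neutrophil granules but is also made by heart muscle, epithelium and other stressed cells.

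The sequences before the start sites of 5 of the genes are shown as examples of windows before secreted proteins and receptors that hold short motifs. All 10 genes were matched to promoter sequences of RefSeq (GRCm38.p6). Capitals mark matches, on either strand, to short motifs of factors known in myeloid cells or of the TATA box. The stretch of S100a8 is cut to 157 bases, as an annotated exon begins there. Its TATAAA at -30 and a PU.1 match at -36 from the RefSeq start lie outside the bases shown. The 5 stretches lie upstream of the annotated exons on the strand of the gene, at chr3:90668821-90668977 on the forward strand, chr3:90695722-90695971 on the reverse strand, chr17:48232489-48232738 on the forward strand, chr6:123289872-123290121 on the reverse strand and chr17:17887574-17887823 on the forward strand.
S100a8: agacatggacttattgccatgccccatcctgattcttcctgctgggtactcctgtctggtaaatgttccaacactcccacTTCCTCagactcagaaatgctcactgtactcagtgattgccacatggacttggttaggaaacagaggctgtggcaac
S100a9: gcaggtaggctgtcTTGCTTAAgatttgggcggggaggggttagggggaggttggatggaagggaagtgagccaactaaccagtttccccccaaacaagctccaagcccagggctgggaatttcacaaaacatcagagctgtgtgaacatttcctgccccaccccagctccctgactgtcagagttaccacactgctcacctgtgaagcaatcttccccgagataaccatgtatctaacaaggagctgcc
Trem1: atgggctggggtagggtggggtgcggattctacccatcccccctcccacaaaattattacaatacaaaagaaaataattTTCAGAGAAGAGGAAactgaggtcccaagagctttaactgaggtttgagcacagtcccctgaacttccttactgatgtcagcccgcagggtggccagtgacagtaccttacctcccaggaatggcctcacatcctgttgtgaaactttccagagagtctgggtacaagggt
Clec4e: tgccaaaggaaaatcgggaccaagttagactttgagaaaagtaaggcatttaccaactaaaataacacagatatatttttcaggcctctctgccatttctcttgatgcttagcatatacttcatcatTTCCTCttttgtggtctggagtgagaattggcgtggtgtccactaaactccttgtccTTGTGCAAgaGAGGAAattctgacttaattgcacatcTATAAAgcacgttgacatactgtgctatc
Fpr2: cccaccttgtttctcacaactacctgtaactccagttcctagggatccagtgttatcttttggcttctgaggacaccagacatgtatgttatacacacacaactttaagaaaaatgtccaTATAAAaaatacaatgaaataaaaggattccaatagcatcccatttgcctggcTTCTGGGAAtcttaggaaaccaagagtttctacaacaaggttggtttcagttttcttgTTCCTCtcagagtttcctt
The C/EBP motif TTGCNNAA was found in the 250 bases before the RefSeq start of 4 of the 10 genes (S100a9, Lcn2, Retnlg and Clec4e) and in 9.55% of 27025 promoters searched in the same way. The PU.1 motif GAGGAA was found in 7 of the 10 genes and in 23.1% of all promoters, and the STAT motif TTCNNNGAA in 2 (Trem1 and Fpr2) and in 7.18%. TATAAA was found in 4 genes (S100a8, Clec4e, Fpr1 and Fpr2) and in 13% of promoters. The letters of the NF-kB motif GGNNTTTCC were in 0 of the 10 windows and in 4.84% of all promoters, and those of the AP-1 motif TGANTCA in 0 and in 6.87%. In Trem1 the STAT and PU.1 letters lie side by side without sharing a base, and in Clec4e the C/EBP and PU.1 letters lie close together. These matches describe letters in the reference and not bound sites.

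The genes lie in 7 places of the mouse genome (GENCODE M21, GRCm38), and 6 of them form neighbouring pairs. S100a8 (chr3:90668978-90670035, forward strand) and S100a9 (chr3:90692632-90695721, reverse strand) are 22596 bases apart. Clec4d (chr6:123262111-123275265, forward strand) and Clec4e (chr6:123281789-123289870, reverse strand) are 6523 bases apart. Fpr1 (chr17:17876471-17883940, reverse strand) and Fpr2 (chr17:17887824-17893952, forward strand) are 3883 bases apart. Lcn2 lies at chr2:32384633-32388252 on the reverse strand. Retnlg (chr16:48872621-48874496), Csf3r (chr4:126024550-126044440) and Trem1 (chr17:48232768-48246924) lie on the forward strand. Trem1 is overlapped on the other strand by the pseudogene AC241601.2 and Fpr2 on its own strand by Fpr3, so that reads there could have been shared. The paralogs Fpr1 and Fpr2, and Clec4d and Clec4e, are uncertain in so far as near-identical reads could have been split between them.

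The libraries held 17119454 to 22811295 counts, at which 3 counts correspond to 0.129 to 0.178 CPM (counts scaled to a common library size with TMM factors, which correct for differences in library composition). Although the labels name the cell type as cardiomyocytes, the RNA came from whole heart tissue. The 8 cardiomyocyte markers summed to 31770 to 53500 CPM, and markers of macrophages, endothelium, fibroblasts and red cells were present in every library. In these genes the library labelled MIRI 2 stood at the level of the sham libraries, and the one labelled GXNI 3 at that of MIRI 1 and MIRI 3. A grouping with the labels of this pair exchanged, which is the one behind the published fold changes, was fitted as an alternative chosen after the values were seen. Results for the 10 genes are given by the deposited labels first and then with the exchange, and in some cases without the pair. Values of gene lists follow the deposited labels unless the exchange is named. Which set of labels is right was not tested.

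Among the secreted proteins, the calprotectin genes stood at their sham level in some of the operated hearts and far above it in others. S100a8 was measured at 12.1, 9.22 and 11.8 CPM in sham 1 to 3, at 203, 8.56 and 141 CPM in MIRI 1 to 3, and at 13.5, 53.8 and 130 CPM in GXNI 1 to 3. S100a9, whose protein binds that of S100a8, had 13.1, 6.89 and 15.6 CPM in sham, 227, 7.55 and 154 CPM in MIRI, and 12.9, 50.9 and 204 CPM in GXNI. Both genes were high in MIRI 1, MIRI 3 and GXNI 3, intermediate in GXNI 2, and close to the sham libraries in MIRI 2 and GXNI 1. In bulk tissue, fewer cells of a type and less RNA per cell cannot be told apart.

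Retnlg, which encodes a resistin-like protein of neutrophils and bone marrow, followed the same libraries at a lower level. Its values were 3.92, 1.04 and 2.83 CPM in sham, 44.2, 2.14 and 33.1 CPM in MIRI, and 2.70, 3.50 and 21.4 CPM in GXNI. In contrast to the calprotectin genes, it was within the sham range in GXNI 2.

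Lcn2 had a different order of libraries. It was measured at 130, 125 and 150 CPM in sham, 391, 206 and 172 CPM in MIRI, and 579, 438 and 132 CPM in GXNI. The highest value was that of GXNI 1, a library in which the calprotectin genes were near sham, and the lowest value outside the sham group was that of GXNI 3, in which they were high. The MIRI libraries did not overlap the sham libraries in Lcn2, while GXNI 3 lay within the sham range.

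The receptors followed S100a8. Csf3r, the receptor of granulocyte colony-stimulating factor, had 13.4, 6.05 and 12.5 CPM in sham, 67.0, 3.80 and 89.6 CPM in MIRI, and 8.50, 48.8 and 108 CPM in GXNI. Trem1, which amplifies the signals of other innate receptors through the adaptor DAP12, had only 6 to 11 counts in sham. Its counts in the MIRI libraries were 698, 9 and 875 and those in the GXNI libraries 7, 144 and 688. Trem1 was thus near absent from the sham hearts, MIRI 2 and GXNI 1, and was well above them in the other 4 libraries.

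Clec4d and Clec4e encode the C-type lectin receptors MCL and Mincle, which bind glycolipids of mycobacteria and, for Mincle, a nuclear protein of dead cells. Clec4d was measured at 3.33, 1.39 and 2.67 CPM in sham, 30.9, 1.90 and 35.1 CPM in MIRI, and 3.20, 19.1 and 44.6 CPM in GXNI. Clec4e had 2.42, 0.50 and 1.28 CPM in sham, 25.3, 0.53 and 17.9 CPM in MIRI, and 1.30, 9.91 and 29.5 CPM in GXNI. For both lectins GXNI 3 was the highest of the 9 libraries, and MIRI 2 and GXNI 1 lay within the sham range.

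Fpr1 and Fpr2, receptors for formylated peptides and for annexin A1 and serum amyloid A, had the lowest counts of the receptors in MIRI 1, MIRI 3, GXNI 2 and GXNI 3. The counts of Fpr1 were 21, 9 and 32 for the sham libraries, 239, 0 and 179 for MIRI, and 7, 90 and 112 for GXNI. The 0 counts of Fpr1 in MIRI 2 allow a level of up to 0.178 CPM in that library, a limit that covers counting error only. Those of Fpr2 were 16, 14 and 21 for sham, 239, 8 and 188 for MIRI, and 17, 80 and 155 for GXNI. Both receptors were high in the libraries in which S100a8 was high.

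**Figure D1:**
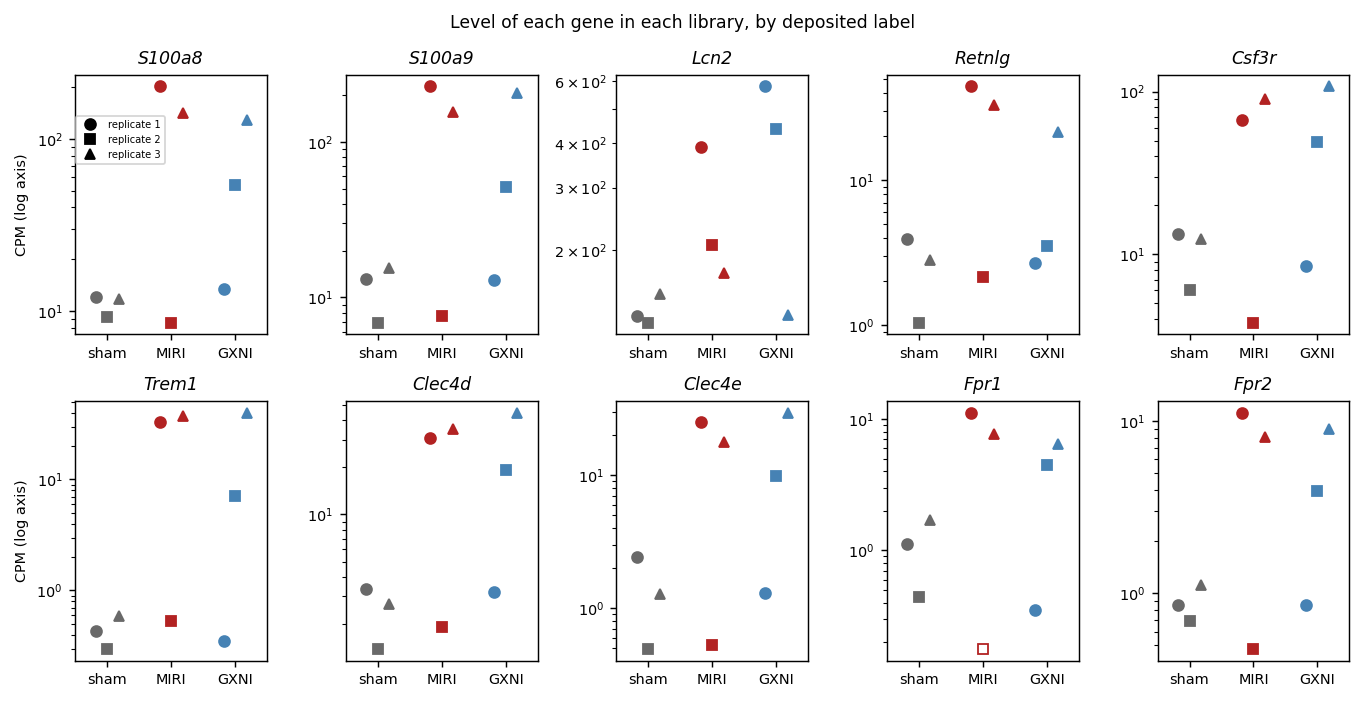
CPM of each of the 10 genes in each library on a log axis, by deposited group, with circles, squares and triangles for replicates 1, 2 and 3 (1 point per library, no averages). The open square is Fpr1 in MIRI 2, counted 0 times and drawn at the level of 3 counts, 0.178 CPM. In 9 genes MIRI 2 and GXNI 1 lie near or under the sham points, and in Lcn2 GXNI 1 is the highest.

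Set over the sham mean, the 9 genes other than Lcn2 stood at a median of 17.0 times in MIRI 1 (6.30 to 74.7), 12.8 times in MIRI 3 (7.02 to 85.7) and 11.8 times in GXNI 3 (5.95 to 91.3). In GXNI 2 the median was 4.59 times (1.35 to 16.2). In GXNI 1 it was 0.954 times (0.32 to 1.30), and in MIRI 2 it was 0.637 times (0 to 1.22). The number of the 10 genes above the range of the sham libraries was 10 in both MIRI 1 and MIRI 3 and 9 in both GXNI 2 and GXNI 3, against 2 in GXNI 1 and 1 in MIRI 2. Lcn2 over its sham mean was 2.90, 1.53 and 1.28 in the MIRI libraries 1 to 3, and 4.29, 3.25 and 0.974 in the GXNI libraries 1 to 3. These folds describe single libraries and carry no test.

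Per length of transcript, Lcn2 was the most abundant of the genes in sham hearts, with 51.5 ± 5.09 RPKM (SD, n = 3), followed by S100a9 with 22.7 ± 8.57 RPKM and S100a8 with 15.9 ± 2.28 RPKM. S100a9 and S100a8 did not differ beyond their spread. Retnlg had 4.38 ± 2.45 RPKM and Csf3r 2.95 ± 1.11 RPKM. Clec4d followed with 1.54 ± 0.618 RPKM, then Fpr1 with 0.826 ± 0.476 RPKM and Fpr2 with 0.688 ± 0.166 RPKM. From Retnlg to Fpr2 each gene overlapped with the next within 1 SD. Clec4e had 0.282 ± 0.195 RPKM and Trem1 0.146 ± 0.0483 RPKM, the lowest levels, which overlapped. In the 6 operated hearts S100a9 reached 435 RPKM, S100a8 292 RPKM and Lcn2 221 RPKM, and Trem1 went from 0.117 to 13.3 RPKM. RPKM here is CPM divided by the merged exon length, so that it depends on the annotation used.

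Comparing MIRI with sham mice asks how ischemia and reperfusion changed these genes. All 10 genes had a positive log2 fold change (0.93 to 5.75), with a median of 3.29 against -0.0015 over all 14644 genes tested. Genes were called when they changed 1.5-fold or more with an unadjusted p no higher than 0.01 in edgeR's quasi-likelihood test. By this rule 2 of the 10 rose, S100a8 and Trem1, where 6.15% of all genes were called higher. At an unadjusted p under 0.05 there were 9 of the 10, against 28.3% of all genes. S100a8 rose from 11.03 ± 1.58 CPM (SD, n = 3) to 117 ± 99.1 CPM (SD, n = 3), or by 3.42 ± 0.97 on the log2 scale (standard error), with adjusted p = 0.101 in edgeR's quasi-likelihood test. Trem1 rose from 0.438 ± 0.145 CPM to 23.6 ± 20.1 CPM, or by 5.75 ± 1.38 on the log2 scale, with adjusted p = 0.0841 by the same method. In both genes MIRI 2 lay at the level of the sham libraries, so that the groups overlapped. Trem1, with 8, 6 and 11 sham counts, passed the filter chiefly through MIRI 1 and MIRI 3, so its call carries no weight. Lcn2, the 1 gene of the 10 whose groups did not overlap (17.4% of all genes were higher without overlap), was higher by 0.93 ± 0.31 on the log2 scale (adjusted p = 0.124 in edgeR's quasi-likelihood test) and was not called.

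The other genes not called had log2 fold changes of 3.46 for S100a9 (standard error 1.05), 3.36 for Retnlg (standard error 1.02), 2.34 for Csf3r (standard error 0.95), 3.21 for Clec4d (standard error 0.95), 3.4 for Clec4e (standard error 1.18), 2.54 for Fpr1 (standard error 1.27) and 2.90 for Fpr2 (standard error 0.95). The adjusted p lay between 0.0841 and 0.232 for the whole set in edgeR's quasi-likelihood test, and 0 genes passed an adjusted p of 0.05. DESeq2 called 8 of the 10 higher, where it called 5.34% of the 27898 genes it tested. It was run without the low-count filter, so this share is not on the same set of genes as that of edgeR.

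The library labelled MIRI 2 moved this count the most. Without it, 10 of the 10 genes were called higher by edgeR, where 16.9% of all genes were, while leaving out any 1 sham library or MIRI 1 left 0 called and leaving out MIRI 3 left 1. With the labels of MIRI 2 and GXNI 3 exchanged, 9 of the 10 rose, where 19.2% of all genes did. The log2 fold change was then 3.84 for S100a8 (standard error 0.20), 4.04 for S100a9 (standard error 0.30) and 6.38 for Trem1 (standard error 0.21). Lcn2 was the exception, at 0.78 ± 0.35 on the log2 scale (adjusted p = 0.0894, edgeR). Trem1 is counted in the 10 and in the 9. With 8, 6 and 11 sham counts it passed the filter chiefly through the libraries placed in MIRI, so its calls carry no weight.

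Comparing GXNI with MIRI mice asks what the injection changed in hearts with the same injury. By the deposited labels no difference in these genes exceeded what the mice of a group varied by. Log2 fold changes went from -1.52 for Retnlg (standard error 1.16) to 0.59 for Lcn2 (standard error 0.57), with a median of -0.52 against -0.00027 over all 14762 genes tested. Of the 10 genes 0 were called by edgeR or DESeq2, where edgeR called 0.0203% of all genes. At an unadjusted p under 0.05 there were also 0, against 0.318% of all genes, and the adjusted p of each was 1 in edgeR's quasi-likelihood test. In 0 of the 10 genes did the groups separate, against 2.71% of all genes. S100a8 had a log2 fold change of -0.83 (standard error 1.13), S100a9 of -0.53 (standard error 1.26) and Trem1 of -0.57 (standard error 1.59). Csf3r was at 0.05 (standard error 1.15), Clec4d at -0.01 (standard error 1.13) and Clec4e at -0.10 (standard error 1.31). For these 6 genes 1 standard error was wider than a change of 2-fold.

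With the labels of MIRI 2 and GXNI 3 exchanged, 5 of the 10 genes fell in GXNI and 0 rose, where 10.7% of all genes fell. Those called were the calprotectin genes S100a8 and S100a9, with log2 fold changes of -2.63 (standard error 0.62) and -3.03 (standard error 0.64), Retnlg at -3.55 (standard error 0.31), Trem1 at -3.75 (standard error 0.86) and Fpr2 at -2.39 (standard error 0.63). Their adjusted p lay between 0.0143 and 0.0321 in edgeR's quasi-likelihood test. Trem1 passed the filter there chiefly through the libraries placed in MIRI, so its call carries no weight. Csf3r at -2.10, Clec4d at -2.17, Clec4e at -2.60 and Fpr1 at -2.37 were not called, nor was Lcn2 at 0.83 (standard error 0.47), the 1 gene with a positive value. Csf3r was at 0.05 by the deposited labels, so that its sign turned with the exchange. With both libraries left out, 3 of the 10 fell, where 3.47% of all genes did.

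**Figure D2:**
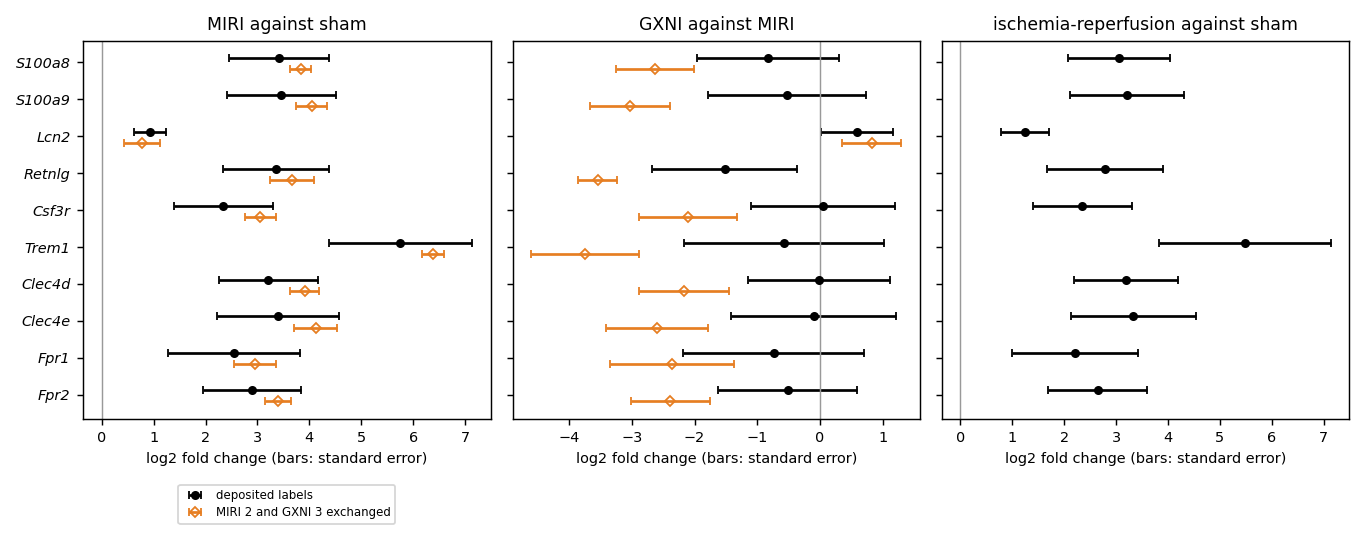
Log2 fold change (points) and standard error (bars) of the 10 genes from edgeR's quasi-likelihood fits, for MIRI against sham, GXNI against MIRI, and all 6 operated libraries against sham. Black circles follow the deposited labels and orange diamonds the exchange of MIRI 2 and GXNI 3. In GXNI against MIRI the black bars of 8 genes cross 0, and the orange points of 9 genes lie below -2.

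Comparing GXNI with sham mice asks what remained of the injury response under the injection. This comparison shares its sham libraries with the one of MIRI. All 10 genes had positive log2 fold changes (1.51 to 5.17), with a median of 2.48 against 0.01 over all 14695 genes tested. S100a8 rose by 2.59 ± 0.73 and Clec4d by 3.19 ± 0.89 on the log2 scale (standard errors), so that 2 of the 10 genes were called where 2.67% of all genes were called higher. At an unadjusted p under 0.05 there were 8 of the 10, against 19.8% of all genes. In 1 gene, S100a8, the groups did not overlap, which held for 13.9% of all genes, and the gap was narrow, with GXNI 1 at 13.5 CPM and sham 1 at 12.1 CPM. The adjusted p (edgeR) lay between 0.219 and 0.309. DESeq2 called 8 of the 10 higher, where it called 3.56% of the 27956 genes it tested without the low-count filter.

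GXNI 1 moved this count the most. Without it, 8 of the 10 genes were called higher by edgeR, where 10.7% of all genes were, while without any 1 sham library or without GXNI 2 there were 0 and without GXNI 3 there was 1. With the exchange of MIRI 2 and GXNI 3, 1 of the 10 was called higher, where 2.16% of all genes were. This gene was Lcn2, at 1.60 ± 0.34 on the log2 scale (adjusted p = 0.138 in edgeR's quasi-likelihood test). Under the exchange S100a8 was at 1.21 (standard error 0.62) and Retnlg at 0.11 (standard error 0.45), and Trem1 had too few counts to pass the filter.

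Setting the 6 operated libraries, MIRI and GXNI together, against the 3 sham libraries gives a comparison that the exchange cannot change. The log2 fold changes went from 1.24 for Lcn2 (standard error 0.46) to 5.48 for Trem1 (standard error 1.66), with a median of 2.92 against 0.0076 over all 15207 genes tested. Trem1 and Clec4d, at 3.19 (standard error 1.0), rose, which makes 2 of the 10 genes where 5.52% of all genes were called higher. Trem1 passed the filter chiefly through operated libraries in which it was high, so its call carries no weight. At an unadjusted p under 0.05 there were 9 of the 10, against 29.5% of all genes. In 0 of the 10 genes were all operated libraries above all sham libraries, against 8.42% of all genes. The adjusted p lay between 0.0940 and 0.239 in edgeR's quasi-likelihood test. DESeq2 called 8 of the 10 genes, where it called 5.18% of the 29338 genes it tested without the low-count filter. Without MIRI 2 edgeR called 7 of the 10 (9.67% of all genes) and without GXNI 1 it called 6 (9.57%). Without any 1 sham library, MIRI 1 or MIRI 3 it called 0, and without GXNI 2 or GXNI 3 it called 1.

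Within a library, the ratio of 2 genes does not depend on the depth. The ratio of the calprotectin pair varied least of those taken, from 0.747 to 1.57 counts of S100a9 per count of S100a8, with the highest value in GXNI 3. For the lectin pair there were 1.22 to 3.56 counts of Clec4d per count of Clec4e. The ratio of Lcn2 to S100a8 instead went from 1.01 in GXNI 3 to 43.0 in GXNI 1.

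A pair of other ratios set libraries apart. Trem1 made up 32.8%, 29.5% and 27.1% of the reads of Trem1 and Csf3r in MIRI 1, MIRI 3 and GXNI 3, against 3.11% to 4.69% in the sham libraries. Its share was 12.7% in GXNI 2 and 3.95% in GXNI 1. In MIRI 2 it was 12.3%, but from 9 counts of Trem1, with an exact 95% interval of 5.80% to 22.1%. The share of Trem1 was thus highest in the libraries with the most reads of the pair. Retnlg made up 6.11% of the reads of Retnlg and S100a8 in GXNI 2 (95% interval 4.80% to 7.64%, exact Clopper-Pearson), and 10.1% to 24.5% in the other 8 libraries. GXNI 2 was low in Retnlg also beside the sham library with the lowest share, whose interval of 6.39% to 15.1% overlapped with it. The intervals cover counting error only, and reads without molecular identifiers are not independent molecules.

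**Figure D3:**
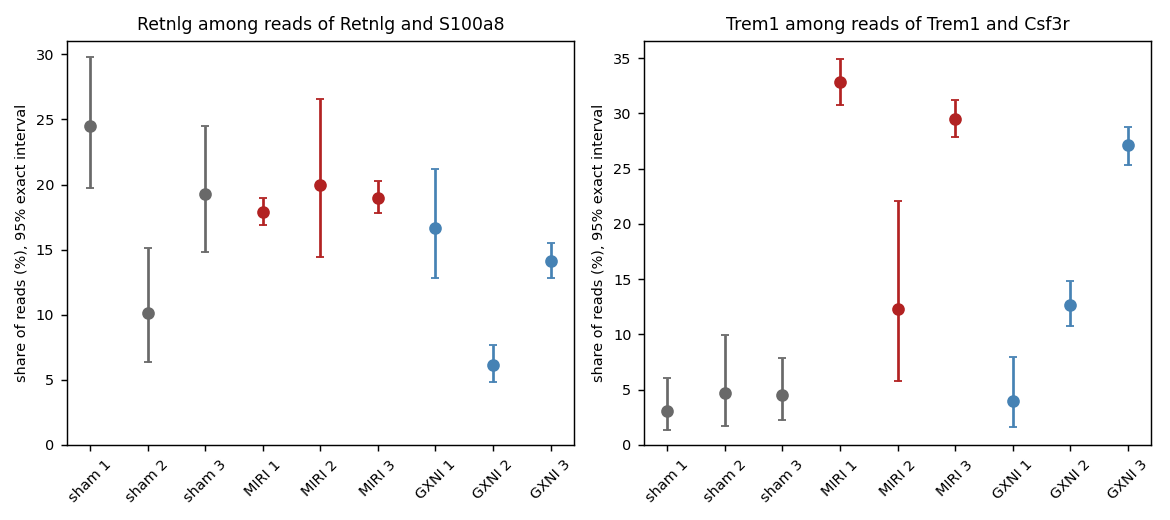
Share of Retnlg among reads of Retnlg and S100a8 (left) and of Trem1 among reads of Trem1 and Csf3r (right) in each library, in percent, with exact 95% binomial intervals as bars and colors for the deposited groups. GXNI 2 has the lowest share of Retnlg, 6.11%, and MIRI 1, MIRI 3 and GXNI 3 have the highest shares of Trem1, 27.1% to 32.8%.

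Across the 9 libraries, Fpr2 had the pattern closest to the mean of the 10 genes, with a mean absolute difference of 0.168 log2 units after each gene was centred, followed by S100a8 at 0.188 and S100a9 at 0.222. Trem1 at 1.07 and Lcn2 at 1.51 were the farthest. The measure counts the size of the changes as well as the order of libraries, and each of the 10 is part of the mean. From the top, Trem1 had the order GXNI 3, MIRI 3, MIRI 1 and GXNI 2, as Clec4d did, while Lcn2 had another order. Among all other genes past the filter, those closest to the mean of the 10 were Gm14548 (0.206), Samsn1 (0.208), Gpr35 (0.212), Csf2rb (0.235), Cd14 (0.254), Ccr1 (0.263), Gm43181 (0.264) and Lilrb4a (0.271). Several of them are known in myeloid cells, such as Cd14, the co-receptor for lipopolysaccharide, and Csf2rb, the shared receptor chain for GM-CSF and interleukin-3.

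Lcn2 was closest to Eda (0.281 log2 units) and to Lrg1 (0.298), genes looked up after the pattern of Lcn2 was seen. Lrg1, a secreted glycoprotein of the acute phase that neutrophils and endothelium also make, was measured at 203, 140 and 212 CPM in sham, 361, 303 and 131 CPM in MIRI, and 723, 582 and 120 CPM in GXNI. Like Lcn2, Lrg1 was highest in GXNI 1 and GXNI 2. Lrg1 was lowest in GXNI 3, where Lcn2 was within the sham range.

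**Figure D4:**
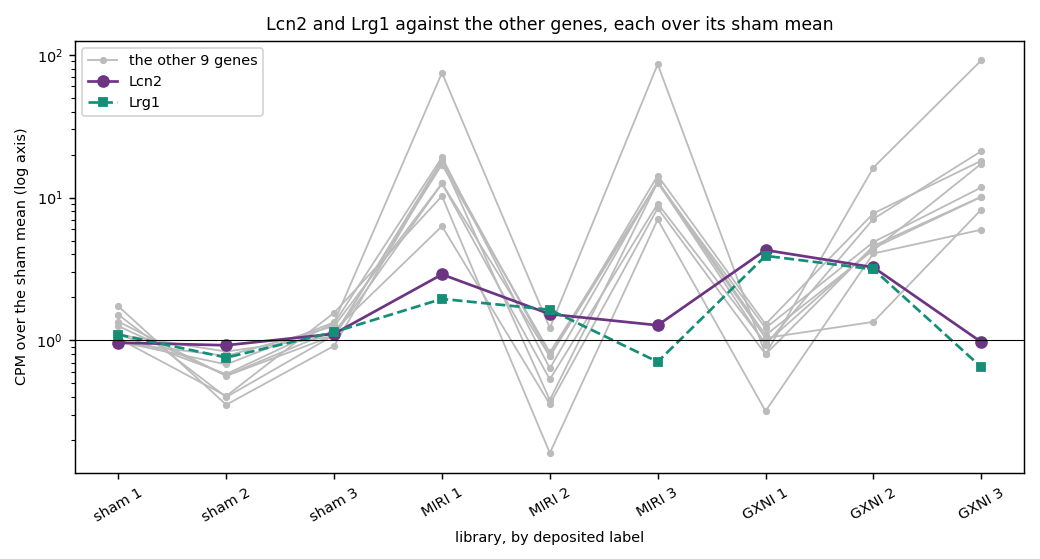
CPM over the sham mean on a log axis in each library for Lcn2 (purple circles), Lrg1 (green squares) and the other 9 genes (grey), with a line at 1. Lines join the values of 1 gene and imply no order, and Fpr1 in MIRI 2 is drawn at the level of 3 counts. Lcn2 and Lrg1 are highest in GXNI 1, at 4.29 times the sham mean for Lcn2, where the grey genes are at 0.32 to 1.30 times.

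Marker genes of neutrophils that are not among the 10 were high in MIRI 1, MIRI 3 and GXNI 3 and intermediate in GXNI 2 when summed. The sum of 10 such markers was 25.2, 11.7 and 22.0 CPM in sham, 332, 10.2 and 390 CPM in MIRI, and 21.1, 115 and 416 CPM in GXNI. Of these markers 7 passed the filter in MIRI against sham, where 2 rose (Cd177 and Padi4, named after their values were seen). Of all genes 6.15% were called higher there. Cxcr2, the main chemokine receptor of neutrophils, had a log2 fold change of 3.62 (standard error 1.25), Il1r2, a decoy receptor for interleukin-1, one of 4.81 (standard error 1.42), Cd300lf one of 4.23 (standard error 1.26) and the gelatinase gene Mmp9 one of 2.92 (standard error 0.96), and none of the 4 was called. With the exchange of MIRI 2 and GXNI 3, 8 of 8 rose in MIRI against sham, where 19.2% of all genes did. In GXNI against MIRI 5 of 8 fell, where 10.7% of all genes did. Il1f9, 1 of the 8, had 7 to 9 sham counts and did not pass the filter in MIRI against sham by the deposited labels. With the exchange it passed only through the libraries placed in MIRI, so its call carries no weight. Cd177 had 10, 2 and 6 sham counts. By both sets of labels it passed the filter chiefly through MIRI libraries in which it was high, so its calls carry no weight either. Among the 6 operated libraries against sham, 1 of 8 markers rose, where 5.52% of all genes did. The classical marker Ly6g was counted at most 19 times in any library.

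Genes of granule proteins differed widely in level. Mpo, Elane and Ctsg, transcribed in bone marrow precursors, were counted 0 or 1 times in every library. In MIRI against sham edgeR called 6.15% of all genes higher. Of the 12 granule genes 4 passed the filter there, and 2 of them rose. These were Chil3, a chitinase-like protein also made by macrophages, by 4.52 ± 1.14 on the log2 scale, and Hp, the hemoglobin scavenger haptoglobin, by 2.90 ± 0.53 (standard errors). Mmp8, neutrophil collagenase, was at 2.54 (standard error 1.13) and Pglyrp1, a peptidoglycan-binding protein, at 2.18 (standard error 0.68), both not called. The exchange gave 7 of 7 higher in MIRI against sham, where 19.2% of all genes were. In GXNI against MIRI 5 of 7 were lower, where 10.7% of all genes were. Of the 7, Ltf, Ngp and Olfm4 had 0 to 3 counts in each sham library. They passed the filter only through the libraries placed in MIRI, so their calls carry no weight. In the 6 operated libraries against sham 3 of 7 rose, Chil3, Hp and Ltf, the last named after its values were seen. Of all genes 5.52% were called higher there. Ltf was counted 0 times in every sham library, so its call carries no weight there either.

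Markers of other cells were summed in the same way. The sum of 10 monocyte and macrophage markers was 390 to 410 CPM in sham, 427, 293 and 425 CPM in MIRI, and 533, 308 and 356 CPM in GXNI. The sum of 8 cardiomyocyte markers was 50810 to 53330 CPM in sham, 32190, 53500 and 33880 CPM in MIRI, and 45060, 35300 and 31770 CPM in GXNI. It was lowest in the libraries in which S100a8 was highest and at the sham level in MIRI 2. The sum of 4 mast cell markers was 4.84, 6.29 and 5.55 CPM in sham, 14.5, 2.62 and 43.9 CPM in MIRI, and 4.60, 7.30 and 46.4 CPM in GXNI, so that it was high in the same 3 libraries as S100a8, and most of it there was Kit. Markers of the mesothelium, the outer lining of the heart, were added after earlier results were known. They summed to 11.2 to 26.3 CPM in sham, 9.80, 12.6 and 13.7 CPM in MIRI, and 77.8, 14.1 and 8.95 CPM in GXNI, so that GXNI 1, the library with the most Lcn2, also had the most of them. The part of these cell types in the levels of the 10 genes was not tested.

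**Figure D5:**
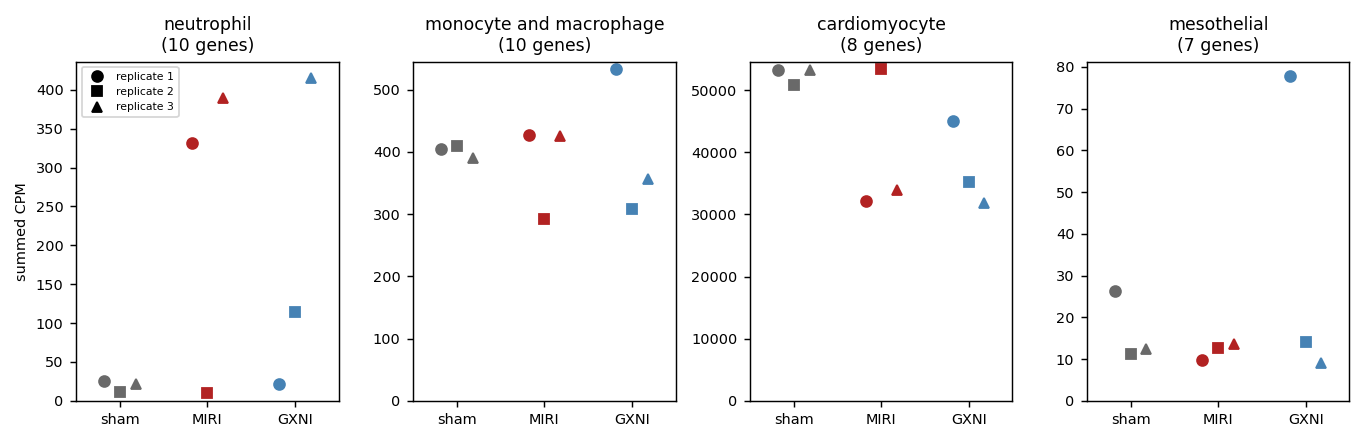
Summed CPM of marker genes of 4 cell types in each library by deposited group, with circles, squares and triangles for replicates 1, 2 and 3 and axes that start at 0. Neutrophil markers are at 332 and 390 CPM in MIRI 1 and MIRI 3 and at 416 CPM in GXNI 3, against 10.2 CPM in MIRI 2, and mesothelial markers are highest in GXNI 1 at 77.8 CPM.

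Lists of partners of the 10 genes had medians between -0.32 and 0.83 log2 units in MIRI against sham, over those of their genes that passed the filter. In that comparison edgeR called 6.15% of all genes higher, the share to set beside the counts that follow. Of 8 receptors and adaptors for S100A8 and S100A9, 1 rose in MIRI against sham, the pattern recognition receptor Tlr4, at 1.10 ± 0.27 on the log2 scale (standard error). Its co-receptor Cd14 was at 2.81 (standard error 0.85), the scavenger receptor Cd36 at 0.02 (standard error 0.27) and Bsg, which encodes basigin, at -0.15 (standard error 0.16), and none of these was called. Other S100 genes were counted too, and 2 of the 7 that passed the filter rose, S100a6 at 1.11 (standard error 0.30) and S100a10 at 1.12 (standard error 0.29). S100a1, the form of cardiac muscle, was at -0.26 (standard error 0.15) and S100a11 at 1.43 (standard error 0.41), both not called. Unlike S100a8, S100a6 was above the sham range in all 6 operated libraries, at 44.6 to 104 CPM against 35.2 to 37.0 CPM. The same held for 4 of the 7 other S100 genes past the filter, S100a6 included, against 8.42% of all genes.

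The list of TREM1 and C-type lectin signaling also holds related surface receptors, such as Trem2 and Clec7a. Of its 13 genes past the filter edgeR called 0 in MIRI against sham, 5 had an unadjusted p under 0.05, and DESeq2 called 4 higher. Of all genes edgeR called 6.15% higher, 28.3% had an unadjusted p under 0.05, and DESeq2 called 5.34% higher. On the log2 scale the kinase Syk was at 1.01 (standard error 0.39), the adaptors Tyrobp and Fcer1g were at 1.21 (standard error 0.56) and 0.75 (standard error 0.52), and the kinase Prkcd was at 0.88 (standard error 0.40). In GXNI against sham 1 of 13 rose, where 2.67% of all genes were called higher. It was Clec4n, which encodes the related receptor Dectin-2 and was named after its values were seen. For the G-CSF axis in MIRI against sham 0 of 8 were called by edgeR, 2 had an unadjusted p under 0.05, and DESeq2 called 2 higher. The 2 of 8 under 0.05 lie near the 28.3% of all genes. Socs3, a feedback inhibitor of this pathway, was at 2.58 (standard error 0.81), Cebpb at 1.06 (standard error 0.49), Jak2 at 0.69 (standard error 0.30) and Stat3 at 0.48 (standard error 0.22).

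Among ligands and signaling genes of the formyl peptide receptors, 0 of 6 rose and 1 fell in MIRI against sham, Hebp1, the precursor of a peptide ligand of these receptors, at -1.17 (standard error 0.24, named after its values were seen). Over all genes edgeR called 6.15% higher, and 413 of 14644 lower. Saa3, a serum amyloid A of inflamed tissue, was at 1.74 (standard error 0.79), Anxa1 at 0.14 (standard error 0.15), the G protein subunit Gnai2 at 0.45 (standard error 0.15) and the lipid kinase subunit Pik3cg at 1.14 (standard error 0.50), without a call. Of 5 genes tied to lipocalin-2 and the resistins, 0 were called by edgeR, 3 had an unadjusted p under 0.05, and DESeq2 called 1 higher and 2 lower. Of all genes 28.3% had an unadjusted p under 0.05, and DESeq2 called 5.34% higher and 760 of 27898 lower. The iron exporter Slc40a1 was at -0.32 (standard error 0.33), and the receptor gene Slc22a17, whose product takes up lipocalin-2, at -0.53 (standard error 0.33). Cap1, which encodes a receptor for resistin, was at 0.78 (standard error 0.31), and Slc11a1, a metal ion transporter of phagosomes, at 1.80 (standard error 0.60). In GXNI against MIRI the medians of the 8 lists lay between -0.62 and -0.05 log2 units by the deposited labels. There edgeR and DESeq2 called 0 of their genes, and 0 had an unadjusted p under 0.05. Of all genes edgeR called 0.0203%, and 0.318% had such a p.

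With the labels of MIRI 2 and GXNI 3 exchanged, the lists of partners gave more calls in MIRI against sham. Of receptors and adaptors 3 of 8 rose (Cd14, Myd88 and Tlr4), and of other S100 genes 4 of 7. Of the TREM1 and C-type lectin list 11 of 14 rose and of the G-CSF axis 8 of 10, beside the 19.2% of all genes called higher. The 11 include the related receptors Clec4n, Clec5a, Clec7a and Trem3. Of the formyl peptide receptor list 2 of 6 rose and 1 fell, and of the lipocalin-2 and resistin list 2 of 5 rose and 3 fell. Of all genes 16.6% were called lower there, so that the 1 of 6 is near that share. In GXNI against MIRI with the exchange, 2 of 8, 4 of 7, 9 of 14, 8 of 10, 1 of 6 and 1 of 5 genes fell in these lists in the same order, where 10.7% of all genes did. In the lipocalin-2 and resistin list 1 gene rose, where 8.56% of all genes did. Csf2 and Csf3 passed the filter in both comparisons, and Trem3 in MIRI against sham, only through the libraries placed in MIRI. Their calls there carry no weight.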

How the data were processed

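RNA was extracted from heart tissue of 3 sham, 3 MIRI and 3 GXNI mice, and 1 library per mouse was sequenced. The authors cleaned the reads and, per the labels, used HISAT2, Subread featureCounts and DESeq2 with the mm10 build, with versions, annotation release and strand setting not given in the sources used here. The deposited values are whole-number read counts per gene, not normalized. The deposited table also holds 49 columns without a name or values, and 0 columns of other samples were used. Without strand information, overlapping genes may share reads.

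Symbols and coordinates are those of GENCODE M21 (GRCm38), in which 54409 of 54532 identifiers had a symbol. Each comparison was fitted on its own libraries in edgeR 4.0.16 (R 4.3.3) with TMM factors, its default low-count filter and a quasi-likelihood test without covariates. A call needed a 1.5-fold change or more and an unadjusted p no higher than 0.01, as in the study. Adjusted p-values are Benjamini-Hochberg values over all genes tested. The standard error is the log2 fold change over the square root of F. P-values weigh the difference between groups against the spread between mice within the groups as labelled, with the spread moderated across genes. CPM use TMM factors over 9 libraries, and likeness was taken on log2 CPM with a prior count of 2, centred per gene. A level of 3 counts was the detection limit.

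Groups follow the deposited labels. As a check of the labels, log2 fold changes of DESeq2 1.42.0 were set beside the published ones, over the genes printed there with a mean count above 20. In MIRI against sham the median absolute difference was 0.399 by the deposited labels and 4.16e-07 with MIRI 2 and GXNI 3 exchanged (1715 genes). In GXNI against MIRI it was 0.753 and 1.6e-06 (1921 genes). Each pair of libraries within a group differed by a chi-square of 13.2 or more per degree of freedom, above sampling noise.

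The 10 genes and all lists were chosen with earlier results of these data known. Named genes are the 10 genes, the up to 4 genes of each list with the highest mean CPM, and the 8 genes nearest in pattern, except where stated. Alternatives were DESeq2, RLE factors, no filter, mitochondrial genes left out, all 9 libraries (or all 3 groups) in 1 fit, a block for the replicate number, an adjusted p of 0.05, and each library left out. The exchange of MIRI 2 and GXNI 3 (also for the lists), and leaving out both, were added after the values were seen. In a simulation of MIRI against sham (13089 genes, 200 of them shifted by 2 log2 units), edgeR recovered 199 and called 0.923% of the unchanged genes. The simulated counts had a dispersion of 0.05 and no library that departed from its group. The 10 genes varied far more within MIRI and GXNI, so this recovery does not carry over to them.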

Additional observations from a re-analysis of the deposited data

How the results depend on the processing

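The log2 fold changes of the 10 genes kept their sign in 150 of 150 alternative values of MIRI against sham, 149 of 149 of GXNI against sham and 160 of 160 of all operated libraries against sham, and turned in 17 of 150 of GXNI against MIRI. Counts of called genes among the 10 moved more. Calls over all genes moved with the setting too, as given below for some settings. Counts without a share of all genes beside them, here and above, are thus no result about the 10 genes alone. From 2 in MIRI against sham they went to 8 with DESeq2, 9 without the filter, 0 with an adjusted p of 0.05 and 0 with all 9 libraries in 1 fit, and to 0 to 10 with 1 library left out. In GXNI against sham 2 became 8 with DESeq2, 8 without the filter, 1 with RLE factors, 0 with all 9 libraries in 1 fit, 0 with an adjusted p of 0.05, and 0 to 8 with 1 library left out. In all operated libraries against sham 2 became 8 with DESeq2, 7 without the filter, 0 with 3 groups in the fit, 0 with an adjusted p of 0.05, and 0 to 7 with 1 library left out. In GXNI against MIRI 0 stayed 0 in these settings.

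With the exchange, added after the values were seen, the counts were 9, 5 and 1 in MIRI against sham, GXNI against MIRI and GXNI against sham, and 9, 5 and 2 with DESeq2. In the same direction edgeR called 19.2%, 10.7% and 2.16% of all genes. Trem1 is counted in the 9 and in the 5 of edgeR, where its calls carry no weight, as it passed the filter chiefly through libraries placed in MIRI. Without both libraries the counts were 10, 3 and 1, and 8 in all operated libraries. The share of all genes was 16.9% beside the 10 and 3.47% beside the 3. It is not given here for the others, whose counts are thus no result about the 10 genes alone. The cause was not tested.

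By the deposited labels, same-numbered libraries of MIRI and GXNI did not deviate together for every number. The correlations were -0.461 and 0.151 for numbers 1 and 2, but 0.726 for MIRI 3 and GXNI 3. The numbers were not taken as pairs. With the replicate number as a block, 3, 0, 0 and 1 of the 10 genes were called in the 4 comparisons in the order of the report. Calls over all genes with the block are given below for GXNI against MIRI only, so these counts are no result about the 10 genes alone. In GXNI against MIRI Clec4d turned to 0.18 and Clec4e to 0.36 with the block.

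Leaving out 1 library in GXNI against MIRI gave -1.02 to 0.50 for Clec4d, -1.37 to 0.57 for Clec4e, -0.89 to 0.63 for Csf3r, -2.02 to 0.16 for S100a9 and -1.45 to 0.11 for Fpr2. Csf3r was -1.44 without both libraries, -2.10 with the exchange and -2.12 with the exchange in DESeq2.

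Over all genes, 900 calls higher and 413 lower for MIRI against sham became 1491 and 760 with DESeq2, 1603 and 803 without the filter, 535 and 265 with all 9 libraries, and 2571 and 2021 without MIRI 2. The exchange gave 2848 and 2462 (3013 and 2564 with DESeq2). In GXNI against MIRI 0 and 3 became 4 and 7 with DESeq2, 4 and 6 without the filter, 1 and 8 with all 9 libraries, 2 and 1 with the block, 228 and 520 without both libraries, and 1264 and 1575 with the exchange (1496 and 1907 with DESeq2). In GXNI against sham 392 and 226 became 994 and 407 with DESeq2, 999 and 426 without the filter, and 1603 and 1062 without GXNI 1. All operated libraries gave 840 and 434, and 1519 and 677 with DESeq2. At 6 to 11 counts, the sham levels of Trem1 limit its fold change.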

Other observations

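Some markers of other blood and tissue cells, picked after their values were seen, were high in some of the libraries in which most of the 10 genes were high. Kit, the stem cell factor receptor that also marks mast cells, was counted 35, 59 and 35 times for sham 1 to 3. Its counts were 288, 31 and 996 for MIRI 1 to 3, and 50, 103 and 784 for GXNI 1 to 3. The mast cell protease genes Cpa3 and Cma1 were instead counted 4 to 19 and 4 to 35 times in all 9 libraries. Between all operated libraries and sham, Kit had a log2 fold change of 3.05 (standard error 1.13, not called), while Cpa3 fell by 1.29 (standard error 0.39, adjusted p = 0.0940 in edgeR's quasi-likelihood test).

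Ly6c2, a marker of inflammatory monocytes, was counted 50, 52 and 99 times for sham, 495, 3 and 281 for MIRI, and 39, 234 and 1318 for GXNI. GXNI 3 held the most Ly6c2 of the 9 libraries, and MIRI 2 the least. Cx3cr1, a receptor of patrolling monocytes and resident macrophages, fell by 1.21 log2 units between all operated libraries and sham (standard error 0.37, adjusted p = 0.0958 in edgeR's quasi-likelihood test). What sets these levels was not tested.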
